A study of Homo sapiens with 4 samples.

Results

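The genes examined here are those that write and erase cytosine methylation: the DNA methyltransferases DNMT1, DNMT3A and DNMT3B, their cofactor UHRF1, and the oxidases TET1, TET2 and TET3. They were chosen by name, 7 genes in all, and the count tables cover 57820 genes. UHRF1 could not be matched by identifier between the gene names used here and the counts, and was not analysed here. The other 6 were matched and all 6 were among the 15136 genes that passed the filter on low counts and were tested. Expression was measured by stranded RNA-seq in 4 libraries of untreated HAP1 cells, a nearly haploid human line. The dKO pair came from cells lacking RING1A and RING1B, the enzymes through which the Polycomb complex PRC1 ubiquitinates histone H2A. The tKO pair came from cells that lacked RING1A, RING1B and BAP1, the enzyme that removes this mark. All 4 libraries thus carried the loss of both RING1 paralogs, and the comparison of tKO with dKO asks what loss of BAP1 changes without the mark. Wild-type libraries were not analysed here. Knockouts of BAP1 and RING1A were antibiotic-resistant clones with an inserted STOP cassette, and RING1B knockout cells had been purchased. The study describes its RNA-seq replicates as biologically independent. Whether the 2 libraries of a genotype came from the same clone was not given in the sources used here, so the p-values measure the spread between these libraries.

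Methylation of cytosine in CpG dinucleotides is set by DNMT3A and DNMT3B, which act on unmethylated DNA, and is kept through cell division by DNMT1, which UHRF1 guides to newly replicated DNA. The TET enzymes oxidise methylated cytosine to hydroxymethylcytosine and further products, using iron, oxygen and alpha-ketoglutarate. Oxidised bases are then lost at replication or are cut out by the glycosylase TDG. Only RNA was measured here, and neither the proteins nor the methylation itself.

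BAP1 was at 111.5 and 110.7 CPM (read counts scaled to a common library size, with TMM factors) in dKO 1 and dKO 2, and at 9.73 and 6.62 CPM in tKO 1 and tKO 2, as the labels state. RNA of a disrupted gene can still be counted: the mean level of RNF2, which encodes RING1B, was 81.7 CPM in dKO (SD 6.04, n = 2) and 72.9 CPM in tKO (SD 6.75, n = 2), and RING1, which encodes RING1A, had between 12 and 17 counts in every library. Counts in genes ran from 16054590 to 18455410 per library, and a count of 3 corresponds to between 0.164 and 0.185 CPM. Libraries of 1 genotype were not duplicates, as chi-square per degree of freedom between their counts was 6.75 for dKO and 19.1 for tKO. Of the HAP1 markers examined, the blood cell genes PTPRC, SPI1, GATA1 and CD34 had between 0 and 3 counts in each library. BCR and ABL1, the partners of the fusion in the leukaemia from which the line derives, were transcribed. ABL1 lay at 35.4 to 40.7 CPM in dKO, 22.2 CPM in tKO 1 and 62.9 CPM in tKO 2. BCR differed in the same directions, at log2 ratios to the dKO mean of -0.33 in tKO 1 and 0.39 in tKO 2. VIM, an intermediate filament gene, lay at 475 to 518 CPM in dKO, 266 CPM in tKO 1 and 487 CPM in tKO 2. The keratin gene KRT18 was lowest in tKO 2 instead (18.5 CPM, against 22.3 to 22.8 CPM in the other libraries). KRT8 was low throughout, between 0.495 CPM in tKO 2 and 1.16 CPM in dKO 2. The log2 ratios of tKO 1 to the dKO mean were -0.90 for VIM, 0.02 for KRT18 and -0.47 for KRT8. Those of tKO 2 were -0.03, -0.28 and -0.95. The tKO libraries were thus not alike in VIM, ABL1 and BCR, while the difference in KRT18 was smaller and KRT8 rested on few counts. The part of these differences in the results was not tested. In bulk RNA, fewer cells with a transcript and less of it per cell cannot be told apart.

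DNMT1, the maintenance enzyme, had the most counts of the 6 genes. It lies on chromosome 19 (ENSG00000130816.10, GRCh37, 10244018 to 10341962, minus strand) and had between 5812 and 6902 counts per library. Its level was 376 CPM in dKO 1, 337 CPM in dKO 2, 372 CPM in tKO 1 and 359 CPM in tKO 2. The dKO libraries enclosed both tKO libraries. The 95% exact Poisson intervals of the counts, which cover counting error only, ran from 367 to 385 CPM in dKO 1 and from 329 to 346 CPM in dKO 2, so the dKO libraries differed from each other by more than counting error.

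DNMT3A (ENSG00000119772.12, chromosome 2, 25450724 to 25565459, minus strand), which sets new methylation, had the fewest counts. It stood at 24.97 CPM in dKO 1, 22.5 CPM in dKO 2, 24.2 CPM in tKO 1 and 22.01 CPM in tKO 2. The tKO libraries bracketed dKO 2 and both lay below dKO 1, so the groups overlapped. DNMT3B (ENSG00000088305.14, chromosome 20, 31350191 to 31397165, plus strand), the second de novo enzyme, stood at 36.4 CPM in dKO 1, 35.4 CPM in dKO 2, 36.4 CPM in tKO 1 and 39.9 CPM in tKO 2. Only tKO 2 stood above the dKO pair, and its counting interval, from 36.9 to 43.1 CPM, overlapped those of the other 3 libraries. DNMT3L, the inactive cofactor of the de novo enzymes, had 0 counts in all 4 libraries. A count of 3 corresponds to 0.164 to 0.185 CPM, so a level below this could have been missed.

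TET1 (ENSG00000138336.8, chromosome 10, 70320094 to 70454244, plus strand) ranged from 1194 counts in tKO 2 to 1508 in dKO 2. It stood at 79.3 CPM in dKO 1, 83.1 CPM in dKO 2, 89.1 CPM in tKO 1 and 73.8 CPM in tKO 2. Here the tKO libraries stood on either side of the dKO pair, and their counting intervals (84.6 to 93.8 CPM and 69.7 to 78.1 CPM) did not overlap.

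TET2 (ENSG00000168769.8, chromosome 4, 106067032 to 106200973, plus strand), the family member without a CXXC DNA-binding domain, was at 73.0 CPM in dKO 1, 58.4 CPM in dKO 2, 68.0 CPM in tKO 1 and 65.7 CPM in tKO 2. As for DNMT1, both tKO libraries lay between the dKO libraries. TET3 (ENSG00000187605.11, chromosome 2, 74212037 to 74335303, plus strand) was at 111 CPM in dKO 1, 88.0 CPM in dKO 2, 118 CPM in tKO 1 and 110.5 CPM in tKO 2. Both tKO libraries were above dKO 2, but tKO 2 was just below dKO 1. For TET2 and TET3 the counting intervals of dKO 1 and dKO 2 did not overlap (69.1 to 77.0 against 54.9 to 62.0 CPM, and 106 to 116 against 83.8 to 92.5 CPM).

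**Figure D1:**
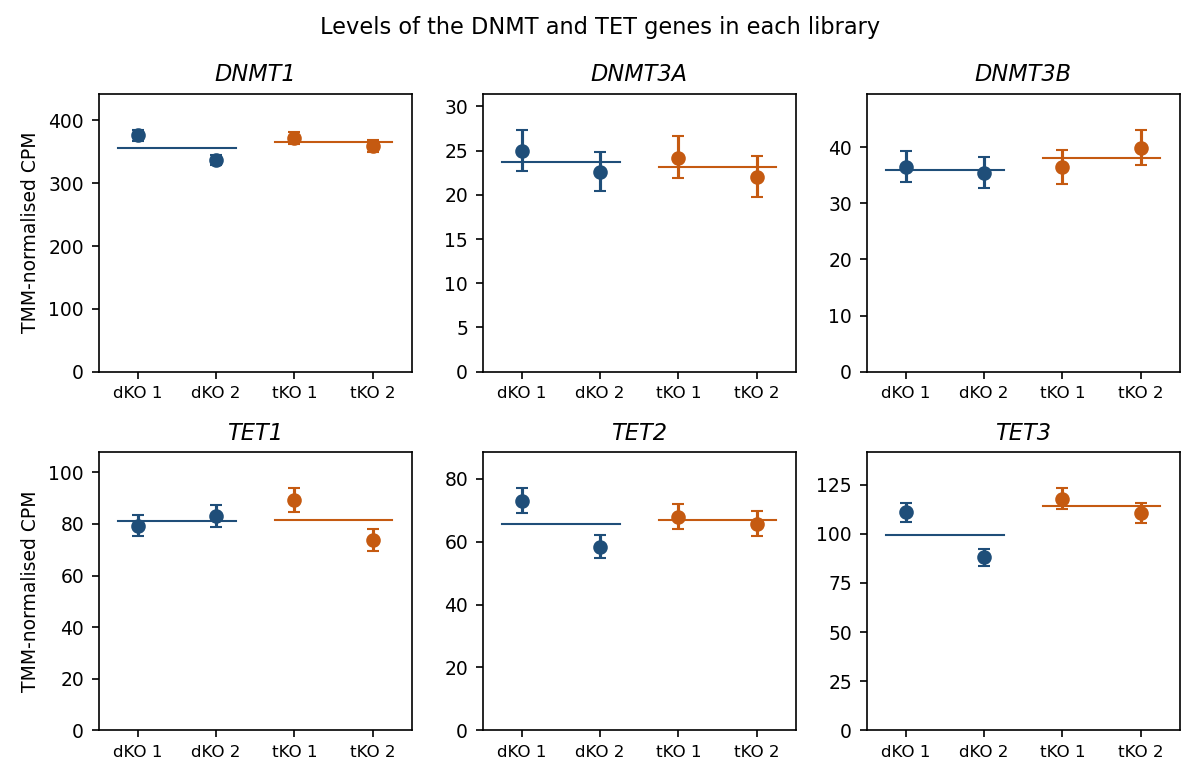
TMM-normalised CPM of the 6 genes in each library (points) with 95% exact Poisson intervals of the counts (bars) and the genotype means (lines), with dKO in blue, tKO in orange and vertical axes from 0. For DNMT1, TET2 and TET3 the lowest library is dKO 2, and for every gene the dKO and tKO libraries overlap.

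The library dKO 2 was the lowest of the 4 for DNMT1, TET2 and TET3, as it was for 25.8% of all tested genes. It was below dKO 1 for all but TET1, against 49.2% of all tested genes. Over the 4 libraries the log2 range was 0.42 for TET3, 0.32 for TET2, 0.27 for TET1, 0.18 for DNMT3A, 0.17 for DNMT3B and 0.16 for DNMT1. Among tested genes whose mean log2-CPM lay within 0.5 of TET3, 11.5% had a range at least as wide, against 30.0% for TET2, 39.9% for TET1, 82.7% for DNMT3A, 81.1% for DNMT3B and 64.3% for DNMT1.

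Genes can be compared with each other only per length. With counts divided by the union of annotated exons, DNMT1 stood at 23.5 ± 1.14 CPM per kb (SD, n = 4 libraries of both genotypes), TET1 at 8.46 ± 0.670, TET3 at 8.25 ± 1.00, DNMT3B at 5.38 ± 0.285, TET2 at 4.02 ± 0.368 and DNMT3A at 1.70 ± 0.1004. In this order only the neighbours TET1 (7.68 to 9.27 CPM per kb) and TET3 (6.80 to 9.10 CPM per kb) overlapped. With the longest transcript as the length, DNMT1 (50.4 CPM per kb) stayed first and TET2 (6.52) and DNMT3A (2.47) last, while TET3 (8.86), DNMT3B (8.47) and TET1 (8.46) overlapped each other. DNMT3B was therefore below TET1 and TET3 under the first length only. Within the methyltransferases DNMT1 made up between 76.0% and 77.5% of the summed level per kb of exon union in each library, DNMT3B between 16.8% and 18.9%, and DNMT3A between 5.19% and 5.74%. Within the TET genes, TET3 made up 40.3% and 35.8% of the sum in the dKO pair and 40.5% and 42.2% in the tKO pair, and TET1 made up 38.8% and 45.5% in dKO and 41.2% and 38.0% in tKO. By this length TET3 was the larger part in dKO 1 and tKO 2 and TET1 in dKO 2 and tKO 1, with TET2 between 18.3% and 20.8% throughout. By the longest transcript the order in tKO 1 turned, to 9.77 CPM per kb for TET3 and 9.27 for TET1. All the shares above hold for the exon union only and depend on the length. By the longest transcript the mean of TET2 (6.52) was nearer to those of TET3 (8.86) and TET1 (8.46), and DNMT1 (50.4) stood further above DNMT3B (8.47). Per kb of exon union, the summed level of the TET genes was 21.3 and 18.99 CPM in dKO and 22.5 and 20.2 CPM in tKO. That of the methyltransferases was 31.6 and 28.7 CPM per kb in dKO and 31.2 and 30.8 CPM per kb in tKO.

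**Figure D2:**
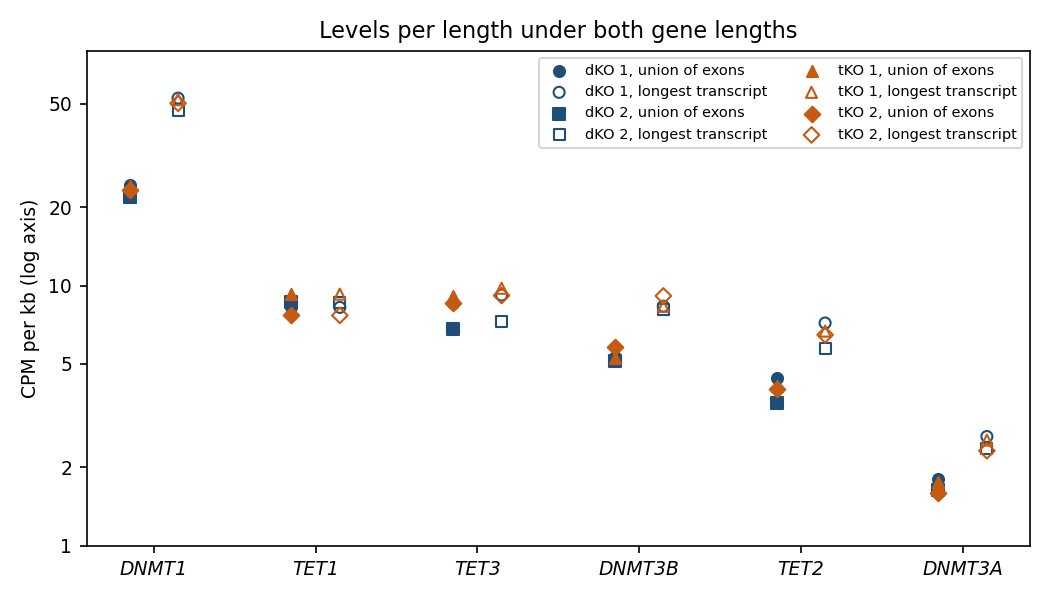
Level of each gene per kb (log axis) in the 4 libraries, with counts divided by the union of exons (filled) or by the longest transcript (open). DNMT1 is highest and DNMT3A lowest under both lengths, and the order of TET1, TET3 and DNMT3B depends on the length.

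TET1 and TET3 were at like levels per kb of exon union but differ in the DNA before their starts. In the 250 bases upstream of the start of the canonical transcript (GENCODE release 44 lifted to GRCh37), TET1 had 9 CG dinucleotides and TET3 had 37, the fewest and the most among the 6 genes. Of 12539 such windows of tested protein-coding genes, 91.8% held at least 9 and 8.32% held at least 37, and the median was 23. CG reads the same on both strands. DNMT1 had 21, DNMT3B 23, DNMT3A 33 and TET2 34. The windows of DNMT1, DNMT3A and TET2 lie inside the annotated spans of these genes given above. Those of TET1, TET3 and DNMT3B overlap no annotated gene. The windows of TET1 (chr10:70319844-70320093, plus strand) and TET3 (chr2:74211787-74212036, plus strand) are shown because they are the extremes, with CG in capitals.
TET1: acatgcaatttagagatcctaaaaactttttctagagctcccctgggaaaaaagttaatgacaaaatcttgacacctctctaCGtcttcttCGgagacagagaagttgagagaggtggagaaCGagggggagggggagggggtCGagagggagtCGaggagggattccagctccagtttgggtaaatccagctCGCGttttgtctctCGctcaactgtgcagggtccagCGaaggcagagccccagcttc
TET3: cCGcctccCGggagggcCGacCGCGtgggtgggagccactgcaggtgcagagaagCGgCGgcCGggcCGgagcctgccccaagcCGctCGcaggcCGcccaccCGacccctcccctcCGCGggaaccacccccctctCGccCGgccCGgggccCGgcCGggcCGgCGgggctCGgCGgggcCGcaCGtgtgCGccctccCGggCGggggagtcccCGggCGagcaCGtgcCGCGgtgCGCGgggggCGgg
These counts describe the reference sequence only, and methylation of the windows was not analysed here.

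None of the 6 genes passed the test of tKO against dKO. The term DE (differentially expressed) required an adjusted p under 0.05 in limma and more than 1 log2 unit of change either way, which 0.0132% of the tested genes met (2 genes, BAP1 at a log2 fold change of -3.77 being 1 of them). The 6 genes gave 0 calls with limma, 0 with the edgeR quasi-likelihood test and 0 with DESeq2. At an unadjusted limma p below 0.05 they also gave 0, against 3.55% of the tested genes. Neither did any of the 6 have both tKO libraries below both dKO libraries, as 15.9% of tested genes had, or both above, as 15.8% had. The median log2 fold change of the 6 was 0.04, against -0.0014 for all tested genes.

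The fold changes and their intervals show what sizes of change the data allow. DNMT1 had a log2 fold change of 0.04 (SE 0.09, limma adjusted p = 0.996), which puts its tKO level at 103% of dKO with a 95% interval from 87.9% to 119.8%. DNMT3A was at -0.04 (SE 0.14, limma adjusted p = 0.996), an interval from 76.5% to 124% of the dKO level. For DNMT3B the log2 fold change was 0.08 (SE 0.12, limma adjusted p = 0.996), an interval from 86.6% to 129.9%.

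TET1 had a log2 fold change of -0.00055 (SE 0.12, limma adjusted p = 0.999), and its interval ran from 81.5% to 123% of the dKO level. For TET2 it was 0.03 (SE 0.13, limma adjusted p = 0.996), with an interval from 82.0% to 128%. TET3 had the largest value of the 6, 0.21 (SE 0.13, limma unadjusted p = 0.164, adjusted p = 0.996), or 115% of dKO with an interval from 92.7% to 144%. No interval reached the fold of 1.5 used for single libraries. Leaving out 1 library turned the sign of DNMT1, DNMT3A, TET1 and TET2, and that of DNMT3B and TET3 held. Without dKO 2 the log2 fold change of TET3 was 0.04.

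**Figure D3:**
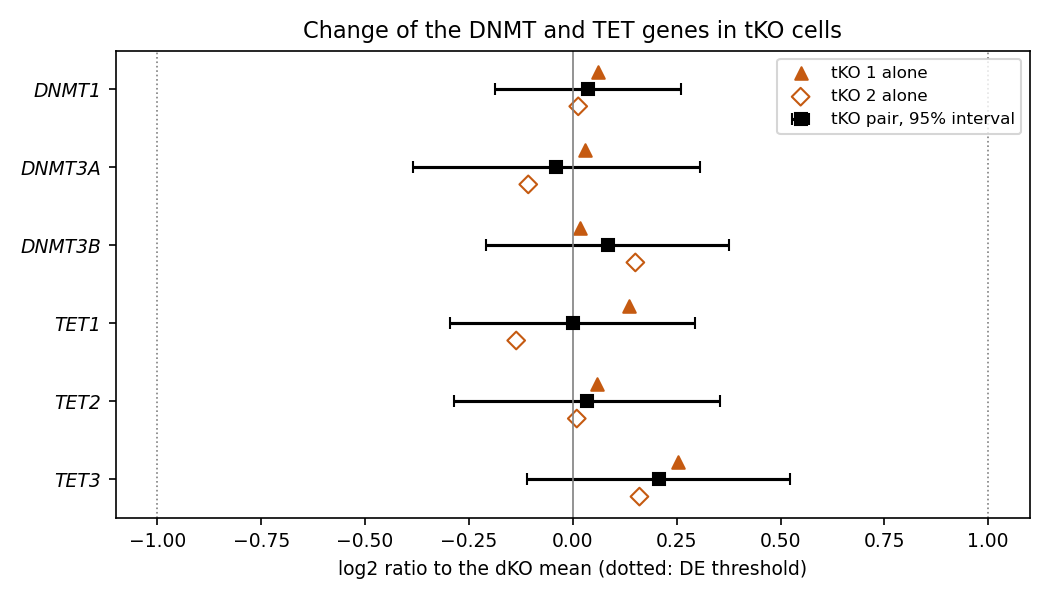
Log2 ratio to the dKO mean of each gene for the tKO pair (squares, with the 95% interval of the limma fit), for tKO 1 alone (triangles) and for tKO 2 alone (diamonds); dotted lines mark the DE threshold of 1. Every interval holds 0, and TET3 at 0.21 lies furthest from it.

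Each tKO library was then compared with the dKO pair on its own. In this fit a lone library is assumed to vary like the dKO pair, so it compares libraries and not genotypes. In tKO 1, 0 of the 6 genes lay over 1.5-fold from the dKO mean, against 8.22% of tested genes, and in tKO 2 also 0, against 11.5%. With limma at an adjusted p below 0.05 and an absolute log2 ratio above 1, 0 of the 6 passed in tKO 1 (1.18% of tested genes), 0 in tKO 2 (3.24%) and 0 between tKO 2 and tKO 1 (4.02%). At an adjusted p below 0.05 and any size, the 6 again gave 0, where 2.87%, 8.1% and 9.53% of tested genes passed.

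In tKO 1 the log2 ratios to dKO were 0.06 for DNMT1, 0.03 for DNMT3A, 0.02 for DNMT3B, 0.14 for TET1, 0.06 for TET2 and 0.25 for TET3. All 6 were above the dKO mean there, as were 50.8% of all tested genes, and 4 of the 6 by at most 0.061. TET3, at 119% of the dKO mean, had the smallest p (limma unadjusted p = 0.0293, adjusted p = 0.373). In tKO 2 they were 0.01 for DNMT1, -0.11 for DNMT3A, 0.15 for DNMT3B, -0.14 for TET1, 0.01 for TET2 and 0.16 for TET3. DNMT3A and TET1 thus lay on different sides of the dKO mean in the 2 libraries. The tKO libraries differed most in TET1, which was lower in tKO 2 by a log2 ratio of -0.27 (limma unadjusted p = 0.0514, adjusted p = 0.259).

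The genes around each of the 6 were also examined. Within 5 Mb on either side of each gene, the neighbours with a mean log2-CPM above 1 (32 genes around TET2 to 173 around DNMT1) had median log2 ratios to dKO between -0.01 and 0.04 in tKO 1 and between -0.03 and 0.07 in tKO 2. TET1, at 0.14 in tKO 1 and -0.14 in tKO 2, stood among 54 neighbours with medians of 0.03 and 0.02.

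The wider pathway was read from 41 genes in 4 lists, of which 40 passed the filter. Of these 40, 0 were DE in either direction with limma, and 0 were higher and 1 lower at an unadjusted p below 0.05, and edgeR and DESeq2 also gave 0 DE genes. Their median log2 fold change was 0.0039. With both tKO libraries outside the dKO range, 5 were higher and 7 lower, of 40, against 15.8% and 15.9% of all tested genes. In the fit by library, 3 of the 40 (SETD2, IDH1 and IDH2) had a limma adjusted p below 0.05 at any size in tKO 2, a share near the 8.1% of all tested genes, and 0 had in tKO 1.

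The partners of the methyltransferases and the chromatin factors that help them had log2 fold changes between -0.35 and 0.17 over 10 tested genes. The smallest p belonged to HELLS, a remodeller needed for methylation of repeats (0.17, limma adjusted p = 0.996), UHRF2, the paralog of UHRF1 (-0.17, adjusted p = 0.996), and USP7, a deubiquitinase that binds DNMT1 (0.13, adjusted p = 0.996). SETD2, which places the H3K36 trimethylation that DNMT3B recognises, was singled out after its values were seen. It was at 177 and 154 CPM in dKO and 181 CPM in tKO 1, but at 92.7 CPM in tKO 2. Only tKO 2 was low, at a log2 ratio of -0.83 to dKO (limma adjusted p = 1.2e-11), and without it the fold change turned to 0.13. Its 119 neighbours on chromosome 3 had a median of -0.92 in tKO 2 and of -0.00051 in tKO 1.

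Genes that supply the methyl donor S-adenosylmethionine had 4 of 5 log2 fold changes above 0, against 7523 of all 15136 tested genes. These 5 values lay between -0.11 and 0.11. AHCY (0.11), MAT2B (-0.11) and MTR (0.09) had the smallest p (limma adjusted p = 0.996 for each). Proteins that bind methylated or unmethylated CpG numbered 11, between -0.32 and 0.19. CXXC5, a CXXC-domain protein that binds unmethylated CpG, had a log2 fold change of -0.32 (limma adjusted p = 0.996) and ZBTB38, a zinc finger protein that binds methylated DNA, of 0.19 (limma adjusted p = 0.996). ZBTB38 turned to -0.02 without tKO 1.

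Of the genes for removal of oxidised bases and TET cofactors, 10 of 14 had log2 fold changes below 0, against 50.3% of all tested genes, with a median of -0.07. IDH2, the mitochondrial enzyme that makes alpha-ketoglutarate, the TET cosubstrate, was at 89.6 and 109 CPM in dKO and at 80.6 and 68.8 CPM in tKO. Both tKO libraries were below both dKO libraries, at a log2 fold change of -0.41 (SE 0.14), but the value failed the correction (limma unadjusted p = 0.0225, adjusted p = 0.996). By library it was at -0.29 in tKO 1 (limma adjusted p = 0.246) and at -0.52 in tKO 2 (adjusted p = 0.00034). IDH1, its cytosolic counterpart, was at 119 and 135 CPM in dKO, 119.7 CPM in tKO 1 and 98.4 CPM in tKO 2. Its log2 fold change was -0.23 (limma adjusted p = 0.996), and in tKO 2 it was at -0.37 (adjusted p = 0.0202). Whether tKO 2 and tKO 1 differed was tested for both, and neither difference passed (limma adjusted p = 0.380 for IDH2 and 0.198 for IDH1). GADD45B, a stress gene linked to demethylation, had a log2 fold change of -0.29 (limma adjusted p = 0.996).

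**Figure D4:**
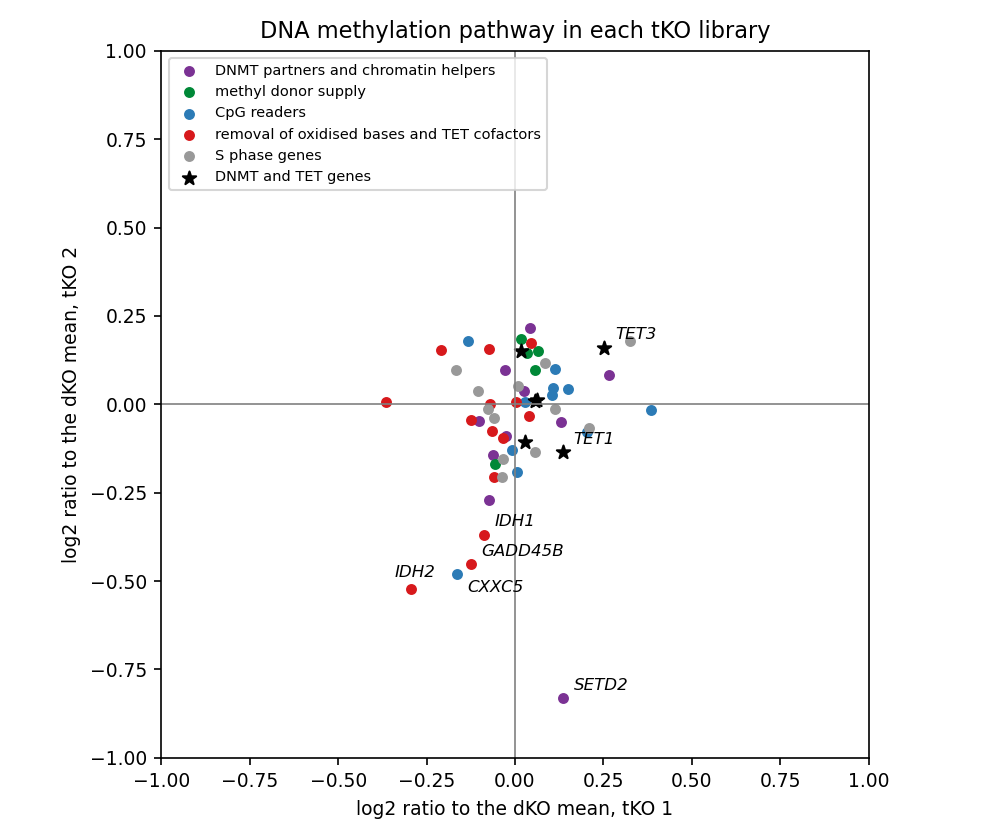
Log2 ratio to the dKO mean of the 6 genes (stars), the pathway lists and the S phase genes in tKO 1 (horizontal) and tKO 2 (vertical). Among the stars, TET3 lies furthest from 0, at 0.25 in tKO 1, and SETD2 stands apart at -0.83 in tKO 2 alone.

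DNMT1 is made mostly in cycling cells, so 12 S phase and proliferation genes are given beside it. With limma 0 were DE and 0 had an unadjusted p below 0.05, and edgeR and DESeq2 gave 0 DE genes as well. Their log2 fold changes ran from -0.12 to 0.25 with a median of -0.03. The largest belonged to RRM2, a ribonucleotide reductase subunit, at 357 and 298 CPM in dKO and 409 and 369 CPM in tKO (0.25, limma adjusted p = 0.996). PCNA, the replication clamp, was at -0.12 and TYMS, thymidylate synthase, at 0.10 (adjusted p = 0.996 for each).

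TET3, the gene with the widest range, had many genes with a like pattern. Likeness was measured as the Euclidean distance over the 4 libraries between log2-CPM values centred on each gene's mean. SCAF8 (distance 0.0198), NOL6 (0.0260) and ENSG00000249430.1 (0.0273), for which no symbol was found, were the nearest, and 144 of the 15136 tested genes lay within 0.1. With 4 libraries this is a description of the pattern high in tKO 1 and low in dKO 2, not of a relation between the genes.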

How the data were processed

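Per the labels and the methods of the study, polyadenylated RNA was made into stranded libraries. The authors trimmed reads with cutadapt 1.12 through Trim Galore 0.4.4, removed ribosomal reads with bowtie 1.2 and mapped the rest to GRCh37 with STAR 2.5.2b. The deposited values were raw counts of uniquely mapped reads over GENCODE release 19 exons, without normalisation or pooling. The column for the strand of this kit was used. Reads not assigned to a gene (27.3% to 28.7% of reads) were left out. They included reads mapped to several loci (14.3% to 14.8%) and reads outside the genes of that strand (10.0% to 11.1%). Reads that overlapped more than 1 gene (1.84% to 1.86%) were also among them. The counts used sum all isoforms of a gene and drop reads shared by several loci.

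Symbols, positions and exon lengths came from GENCODE release 44 lifted to GRCh37 and matched 97.5% of the tested genes. Exon lengths therefore belong to a later release than the counts. Upstream sequence was read from GRCh37 with samtools 1.23.1.

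Genes with CPM above 0.5 in at least 2 libraries were tested. Log2-CPM with TMM library sizes (edgeR 4.0.16) and a prior count of 2 were fitted in limma 3.58.1 (R 4.3.3) with genotype as the only term, empirical Bayes and a mean-variance trend. Adjusted p-values are Benjamini-Hochberg values over all tested genes. A second fit had terms for the dKO pair, tKO 1 and tKO 2, where the spread rests on the dKO pair and the trend. All printed p-values are two-sided. Alternatives were RLE factors, library totals, limma-voom, no trend, the edgeR quasi-likelihood test, DESeq2 1.42.0, other filters, unstranded counts, a prior count of 0.25, the replicate number as a block, and leaving out each library. Only the limma fits with the main settings were run on simulated counts with planted changes, and the outcome is not given here.

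The genes and lists were chosen with earlier results of these data known. Named were the 6 matched genes, the knockout targets and, in each list, genes DE in any contrast or else the 3 with the smallest p, of which 1 is not reported here. For the gene with the widest range, the 3 genes nearest in pattern were also named.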

Additional observations from a re-analysis of the deposited data

Results flagged for a closer look

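One column outside the main measurement held a signal above that of the dKO libraries. Reads from the strand opposite to TET1 numbered 1 and 1 in the dKO libraries and 4 and 1 in the tKO libraries, a tKO mean of 0.154 CPM, which is under the level that 3 counts give in either tKO library. The single read in tKO 2 equals the number in each dKO library and gave a higher CPM only because that library was smaller. Reads of this kind made up at most 0.809% of the stranded reads of any of the 6 genes in any library, against 4.01% to 4.24% over all genes.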

How the results depend on the processing

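The 6 genes gave 0 DE genes under all 15 alternatives, as did the 41 pathway genes and the 12 S phase genes, and in no alternative run on it did a gene of the 6 pass 1.5-fold in a single library. The number of DE genes over the whole table, 2 with limma, was 1 without the trend, with the edgeR quasi-likelihood test, at CPM above 5 and with unstranded counts, 25 with DESeq2, 0 with no filter (1447 at an unadjusted p below 0.05), and 0 to 480 when 1 library was left out (0 without either dKO library, 175 without tKO 2, 480 without tKO 1). With the replicate number as a block it was 13. Deviations of same-numbered libraries from their group means had a correlation of 0.0581, and the block called none of the 6. Whether same-numbered libraries shared a preparation was not tested. The genes past the threshold in tKO 1, 178 with the filter used, were 354 with no filter and 92 at CPM above 5. At CPM above 5 they were 246 against 491 in tKO 2, and 362 against 608 between the tKO libraries.

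Leaving out 1 library turned signs of small log2 fold changes. DNMT1 ran from -0.042 (without dKO 2) to 0.11, and DNMT3A from -0.11 to 0.030 (without dKO 1), with 0.025 also without tKO 2. TET1 ran from -0.14 to 0.13 (without tKO 2), with 0.03 without dKO 2, and TET2 from -0.13 (without dKO 2) to 0.19. RING1 ran from -0.25 to 0.20 (without dKO 2), with 0.03 without tKO 1. ZBTB38 ran from -0.015 (without tKO 1) to 0.38. SETD2 ran from -0.83 to 0.13 (without tKO 2). With all libraries kept, TET1 turned to 0.0055 with edgeR and 0.0059 with DESeq2. The log2 fold change of TET3 ran from 0.20 to 0.21 over the alternatives that kept all libraries and from 0.04 to 0.37 when 1 was left out, and its unadjusted limma p fell below 0.05 without dKO 1 and without tKO 2. BAP1 kept its direction and lost its call without the trend (adjusted p = 0.384), with no filter (adjusted p = 0.734) and without either dKO library. The cause of these changes was not tested. The limma intervals reflect the spread between libraries: for DNMT1 in dKO 1 counting error alone spans 367 to 385 CPM.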
